A study of Mus musculus with 12 samples.

Results

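Cyclins D1, D2, D3, E1, E2 and A2 and the kinases CDK2, CDK4 and CDK6, which drive cells through G1 and S phase, were followed in megakaryocytes (MEG), erythroblasts (ERY) and the hematopoietic stem/progenitor cells (HSPC) of the mouse fetal liver. The members are 9 named genes of 19937 measured, and each is represented by 1 probe set that carries no other gene symbol. Every population was profiled on 4 arrays, stated to be biological replicates, of cells from embryos at E14.5, and the strain is not given in the sources used here. MEG were grown in culture from KIT-positive progenitors and were enriched with beads on CD41. ERY were taken directly from the liver with beads on Ter119, and HSPC, labelled HSC in the deposited data, were sorted directly as lineage-negative, Sca1-positive cells. MEG are therefore the only cultured population, so that culture and lineage cannot be told apart. The sources used here name no engineered allele and no drug for any population.

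D-type cyclins answer to growth factors and cytokines, bind CDK4 or CDK6, and start the phosphorylation of the retinoblastoma protein that releases E2F factors. E2F factors then induce the E cyclins, which activate CDK2 at the start of S phase, and cyclin A2, which partners CDK2 during S phase and CDK1 later. These genes have particular roles in the populations studied here. In mice, cyclin D3 sets the number of divisions that maturing erythroblasts complete, E cyclins are needed for megakaryocytes to become polyploid, and CDK6 has a role in the exit of stem cells from quiescence. Megakaryocytes replicate their DNA without dividing, a process known as endomitosis, whereas erythroblasts divide rapidly until they leave the cycle.

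The deposited values are RMA levels on the log2 scale, so that 1 unit is 2-fold. The median of all values was 6.16, and every member value was above it except those of *Ccne2* on MEG array 1 and HSPC array 4. Markers of each population stood where its label puts them. The mean level of 10 megakaryocyte genes was 12.57 to 12.65 on the MEG arrays, 7.20 to 8.01 on the ERY arrays and 7.95 to 8.99 on the HSPC arrays. That of 13 erythroid genes was 6.56 to 6.87 in MEG, 12.23 to 12.38 in ERY and 6.93 to 7.89 in HSPC. The 11 stem and progenitor genes averaged 7.37 to 7.90 in MEG, 5.89 to 6.09 in ERY and 8.47 to 9.14 in HSPC. Genes of other cell types also differed between the populations: 13 hepatocyte genes averaged 5.87 to 6.17 in MEG, 10.24 to 11.19 in ERY and 7.91 to 9.70 in HSPC, 11 macrophage genes averaged 6.79 to 8.39 in MEG, 8.12 to 9.04 in ERY and 7.21 to 7.72 in HSPC, and 11 myeloid genes averaged 6.37 to 8.98 in MEG, 6.21 to 6.66 in ERY and 9.25 to 9.93 in HSPC, with the highest MEG value on array 3. Their part in the results was not tested. MEG arrays 1 and 4 stand apart from MEG arrays 2 and 3, and HSPC arrays 1 and 2 from HSPC arrays 3 and 4, and where leaving out such a pair changed the call or the direction of a member, the value without it is given.

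A gene was called changed at a limma adjusted p under 0.05, taken over all 19937 genes, and a change above 2-fold. In MEG against HSPC, 4 of the 9 members changed by this rule, all of them lower, where 20.2% of all genes changed, 8.77% to a higher and 11.4% to a lower level. Among the 12131 genes that reached the median of all values with the mean of any population, 32.8% changed, 14.1% to a higher and 18.6% to a lower level. In ERY against HSPC, 7 of 9 changed, 4 higher and 3 lower, against backgrounds of 20.6% in either direction, 8.35% higher and 12.3% lower, and of 34.1%, 13.9% and 20.1% among the genes reaching the median. Between MEG and ERY, 6 of 9 changed, with 2 at a higher and 4 at a lower level in MEG, against 16.5%, 8.75% and 7.77% of all genes and 27.1%, 14.5% and 12.6% of those reaching the median. The median change of the members was -0.51, -0.24 and -0.35 on the log2 scale in these comparisons, against -0.02, 0.03 and -0.02 over all genes. These are bulk populations, in which fewer cells that express a gene and less RNA per cell cannot be told apart.

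**Figure D1:**
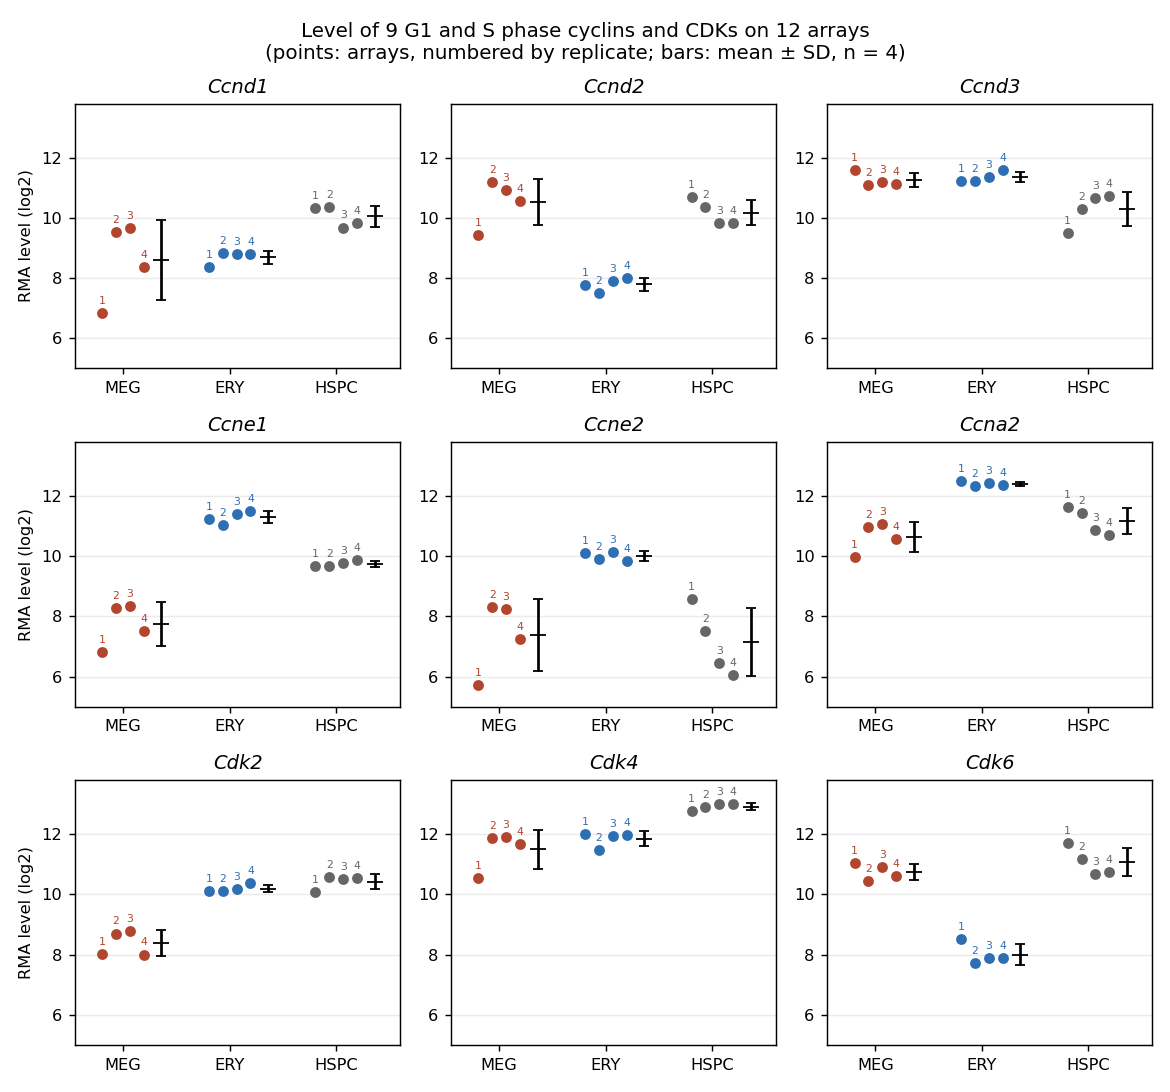
RMA level (y axis, log2) of each gene on the MEG, ERY and HSPC arrays (x axis), with arrays as points numbered by replicate and the mean ± SD of 4 arrays as a black bar. *Cdk6* and *Ccnd2* are high in MEG and HSPC and low in ERY, *Ccne1* is lowest in MEG and highest in ERY, and MEG array 1 is the lowest MEG array for 6 of 9 genes.

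The 3 D-type cyclins had 3 different patterns. *Ccnd2* was high in MEG and HSPC and low in ERY, *Ccnd3* was highest in both differentiated lineages, and *Ccnd1* was highest in HSPC. *Ccnd2* (chromosome 6, 127125162 to 127152188, GRCm38.p6), the D-type cyclin best known as a target of cytokine signals in blood cells, stood at 9.43, 11.19, 10.94 and 10.55 on MEG arrays 1 to 4, at 7.76, 7.52, 7.91 and 8.02 on the ERY arrays, and at 10.68, 10.37, 9.83 and 9.84 on the HSPC arrays. Every ERY array lay below every MEG and every HSPC array. It fell by 2.38 on the log2 scale in ERY against HSPC, a 5.19-fold change (SE 0.33, adjusted p = 0.000123), and was higher in MEG than in ERY by 2.73 (SE 0.33, adjusted p = 3.96e-05). The values of MEG and HSPC overlap, with a change of 0.35 (95% interval -0.37 to 1.07, adjusted p = 0.446), which was -0.19 without MEG arrays 2 and 3 and 1.30 with array weights, where it passed the test.

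*Ccnd3* (chromosome 17, 47505051 to 47599689), the D-type cyclin of late erythroid divisions, had levels of 11.59, 11.10, 11.20 and 11.12 in MEG, 11.23, 11.23, 11.38 and 11.59 in ERY, and 9.51, 10.29, 10.67 and 10.72 in HSPC. All 8 arrays of the differentiated lineages were above all HSPC arrays, and HSPC array 1 was lower than the other HSPC arrays. The gene rose in ERY by 1.06 on the log2 scale (2.08-fold, SE 0.24, adjusted p = 0.00406). Its change in MEG was 0.96 (1.94-fold, SE 0.24, adjusted p = 0.00777), short of 2-fold, but it passed in 10 of 28 alternatives, among them quantile normalization (1.04), centring on the array median (1.06) and the fits without HSPC replicate 3 (1.08), HSPC replicate 4 (1.099), MEG replicate 2 (1.01), MEG replicate 4 (1.0017) or MEG arrays 2 and 3 (1.06). MEG and ERY differed by -0.10 (95% interval -0.62 to 0.42), a sign that turned under ribosomal centring (0.05), in which each array is set to the mean of 60 ribosomal protein genes and the change in MEG against HSPC was 1.51, and without MEG arrays 2 and 3 (0.0012). The size of both changes against HSPC depended on the HSPC arrays used. Without HSPC arrays 1 and 2, the change was 0.56 in MEG and 0.66 in ERY, both short of 2-fold, and without HSPC arrays 3 and 4 it was 1.36 in MEG and 1.46 in ERY, both past it. In ERY it was also short of 2-fold without HSPC replicate 1 (0.79), without ERY replicate 4 (0.98) and with array weights (0.72).

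*Ccnd1* (chromosome 7, 144929931 to 144939831), a D-type cyclin of many tissues, was read at 6.83, 9.54, 9.66 and 8.38 in MEG, at 8.37, 8.84, 8.79 and 8.79 in ERY, and at 10.33, 10.37, 9.68 and 9.82 in HSPC. Each of the 4 HSPC arrays exceeded all arrays of the other populations, though MEG array 3, at 9.66, was close to HSPC array 3, at 9.68. MEG arrays 2 and 3 were above every ERY array, and MEG array 1 was below every ERY array, and the MEG mean was 8.60 ± 1.32 (SD, n = 4). *Ccnd1* fell by 1.45 on the log2 scale in MEG against HSPC (SE 0.49, adjusted p = 0.0375). In ERY the change was -1.35 with the same SE (adjusted p = 0.0512). The model takes 1 spread per gene over all 3 populations, and the SD of *Ccnd1* was 1.32 in MEG, 0.22 in ERY and 0.35 in HSPC. With only the 8 arrays compared, the SE of the change in ERY was 0.19. The difference between MEG and ERY was -0.10 (95% interval -1.16 to 0.97), or 0.90 without MEG arrays 1 and 4, 0.50 without MEG replicate 1, 0.75 with array weights and 0.06 when ribosomal protein genes were set level. The call in MEG was lost in 16 of 28 alternatives, among them the fit without MEG replicate 1 (-0.86) and without MEG arrays 1 and 4 (-0.45), HSPC arrays 1 and 2 (-1.15, adjusted p = 0.170) or HSPC arrays 3 and 4 (-1.75, adjusted p = 0.0717). It was also lost when only the 8 arrays compared were used (adjusted p = 0.0933). In ERY the gene passed in 10 of 28 alternatives, where its adjusted p was 0.000568 when only the 8 arrays compared were used, 0.000213 without MEG arrays 1 and 4, 0.00609 without MEG arrays 2 and 3 and 0.0470 with a replicate block.

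Both kinase partners of the D-type cyclins were measured. *Cdk6* was 8.46-fold lower in ERY than in HSPC and overlapped HSPC in MEG, and *Cdk4* was lower than in HSPC in both lineages. *Cdk6* (chromosome 5, 3341004 to 3531008) stood at 11.04, 10.46, 10.91 and 10.62 in MEG, at 8.51, 7.71, 7.89 and 7.89 in ERY, and at 11.72, 11.16, 10.70 and 10.75 in HSPC. The ERY arrays lie well below both other populations, which overlap each other. *Cdk6* fell by 3.08 on the log2 scale in ERY (SE 0.24, adjusted p = 1.22e-06), and was higher in MEG than in ERY by 2.76 (SE 0.24, adjusted p = 2.37e-06). Between MEG and HSPC the difference was -0.32 (95% interval -0.85 to 0.21, adjusted p = 0.336), and its sign turned under ribosomal centring (0.23) and without HSPC arrays 1 and 2 (0.04).

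*Cdk4* (chromosome 10, 127063535 to 127067288), the kinase that D-type cyclins activate in most dividing cells, was at 10.55, 11.88, 11.92 and 11.67 in MEG, at 12.01, 11.49, 11.93 and 11.98 in ERY, and at 12.78, 12.91, 13.00 and 13.00 in HSPC. No MEG or ERY array reached the lowest HSPC array. *Cdk4* fell by 1.42 in MEG (SE 0.26, adjusted p = 0.00111; -1.02 without MEG arrays 1 and 4) and by 1.07 in ERY (SE 0.26, adjusted p = 0.00662) on the log2 scale. MEG and ERY overlap, with a difference of -0.35 (95% interval -0.92 to 0.22, adjusted p = 0.417), or 0.05 without MEG arrays 1 and 4. Under ribosomal centring both changes against HSPC were short of 2-fold, at -0.87 in MEG and -0.67 in ERY, and the change in ERY was also short of it with centring on the array median (-0.95), without ERY replicate 2 (-0.95) and without HSPC arrays 3 and 4 (-0.99, adjusted p = 0.0553).

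The promoters of the kinases are shown because these genes, which act with overlapping partners, had 3 different patterns over the populations. The sequences are the 250 bases before a transcript start in RefSeq on GRCm38.p6, where 5 of the 9 members have 6 such windows. The start used for *Cdk6* lies inside the span given for the gene, so that its window is not upstream of the whole gene. They lie at chr10:127063285-127063534 on the plus strand for *Cdk4*, chr5:3343643-3343892 on the plus strand for *Cdk6* and chr10:128705052-128705301 on the minus strand for *Cdk2*. Capitals mark matches, on either strand, to TTTNNCGC (a loose form of the E2F motif), the GATA motifs AGATAA and, with another first base, TGATAA, to CACGTG (an E-box of MYC and related factors) and to CAGNTG (an E-box of TAL1 and related factors).
Cdk4: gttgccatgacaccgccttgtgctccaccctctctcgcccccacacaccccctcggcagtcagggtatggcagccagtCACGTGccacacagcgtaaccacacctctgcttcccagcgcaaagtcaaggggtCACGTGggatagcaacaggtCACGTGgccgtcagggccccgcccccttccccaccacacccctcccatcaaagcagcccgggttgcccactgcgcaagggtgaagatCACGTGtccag
Cdk6: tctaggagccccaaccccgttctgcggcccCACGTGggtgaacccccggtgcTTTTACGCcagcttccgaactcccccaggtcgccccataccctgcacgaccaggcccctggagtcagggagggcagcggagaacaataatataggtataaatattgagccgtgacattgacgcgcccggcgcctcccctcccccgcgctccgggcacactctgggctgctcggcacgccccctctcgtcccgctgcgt
Cdk2: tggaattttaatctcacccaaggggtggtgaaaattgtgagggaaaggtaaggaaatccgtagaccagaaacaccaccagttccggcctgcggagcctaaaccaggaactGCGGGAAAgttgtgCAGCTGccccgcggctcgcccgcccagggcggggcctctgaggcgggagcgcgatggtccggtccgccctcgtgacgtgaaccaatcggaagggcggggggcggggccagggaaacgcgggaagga
The *Cdk4* window holds 4 copies of CACGTG, where 6.02% of 32851 windows of this length hold at least 1 and 0.0213% hold 4 or more. The *Cdk6* window has 1 CACGTG and 1 TTTNNCGC, and the *Cdk2* window has 1 TTTNNCGC and 1 CAGNTG, motifs found in 4.28% and 44.8% of all windows for TTTNNCGC and CAGNTG. No GATA match, present in 16.6% of windows, lies in the windows of the members, and the 2 windows of *Ccnd3* and the 1 of *Ccne1* hold none of the 4 kinds of motif. A match to these letters is a description of the sequence, and binding was not analysed here.

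*Ccne1* separated MEG from ERY more than any other member, and it moved in opposite directions in the 2 lineages. The gene (chromosome 7, 38097984 to 38107490) encodes cyclin E1, which activates CDK2 at the entry to S phase. Its levels were 6.80, 8.29, 8.34 and 7.51 in MEG, 11.23, 11.05, 11.40 and 11.50 in ERY, and 9.66, 9.67, 9.78 and 9.88 in HSPC. The 3 populations did not overlap, with MEG lowest and ERY highest. On MEG array 4, *Ccne1* (7.51) was little above the 95th percentile of 1027 olfactory receptor genes (7.35), which give the array background. *Ccne1* fell by 2.01 on the log2 scale in MEG against HSPC (SE 0.28, adjusted p = 0.000164), rose by 1.54 in ERY against HSPC (SE 0.28, adjusted p = 0.000959), and was 11.8-fold lower in MEG than in ERY (log2 change -3.56, SE 0.28, adjusted p = 8.56e-07). Without MEG arrays 1 and 4 the change in MEG against HSPC was -1.43, and without MEG arrays 2 and 3 it was -2.60. The difference between MEG and ERY ranged from -4.14 to -2.98 over the alternatives and was called in all 28.

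*Ccne2* (chromosome 4, 11190433 to 11204779), which encodes the other E-type cyclin, varied widely within MEG and within HSPC. Levels of 5.73, 8.30, 8.23 and 7.23 were measured in MEG, 10.12, 9.92, 10.15 and 9.83 in ERY, and 8.58, 7.50, 6.44 and 6.07 in HSPC. ERY was above both other populations on every array, while MEG and HSPC overlapped over most of their ranges. On MEG arrays 1 and 4 *Ccne2* was below the 95th percentile of 1027 olfactory receptor genes, which are silent in blood cells and give the array background (6.04 and 7.35), so that the level there is near the background. On HSPC arrays 3 and 4 (6.44 and 6.07) it was above that percentile (5.78 and 5.84), on array 4 by little. These arrays alone are the reference when HSPC arrays 1 and 2 are left out. *Ccne2* rose in ERY against HSPC by 2.86 on the log2 scale (SE 0.59, adjusted p = 0.00211), by 3.75 without HSPC arrays 1 and 2 and by 1.96 without HSPC arrays 3 and 4. It was lower in MEG than in ERY by a log2 change of -2.63 (SE 0.59, adjusted p = 0.00438), or -1.74 without MEG arrays 1 and 4 (adjusted p = 0.0429) and -3.52 without MEG arrays 2 and 3. In MEG against HSPC the change was 0.23, with a 95% interval of -1.04 to 1.50 that leaves its direction unknown, and it passed the test with array weights alone among the alternatives (1.78). It was -0.67 without HSPC arrays 3 and 4 and -0.66 without MEG arrays 2 and 3.

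*Cdk2*, the kinase that E and A cyclins activate, was lower in MEG than in both other populations, and its levels in ERY and HSPC overlapped. The gene (chromosome 10, 128697938 to 128705051) stood at 8.03, 8.70, 8.80 and 8.0 in MEG, at 10.12, 10.11, 10.17 and 10.37 in ERY, and at 10.08, 10.59, 10.51 and 10.54 in HSPC. All MEG arrays were more than 2-fold below all other arrays, and the ERY and HSPC arrays overlapped. *Cdk2* fell by 2.05 on the log2 scale in MEG against HSPC (SE 0.20, adjusted p = 1.02e-05), and the difference between MEG and ERY was -1.81 (SE 0.20, adjusted p = 1.61e-05). The change in ERY was -0.24 (95% interval -0.67 to 0.20, adjusted p = 0.435), or 0.17 under ribosomal centring.

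*Ccna2*, which encodes the cyclin of S phase and G2, was highest in ERY, and its levels in MEG and HSPC overlapped. The gene (chromosome 3, 36564865 to 36573038) had levels of 9.97, 10.98, 11.07 and 10.56 in MEG, 12.50, 12.35, 12.42 and 12.37 in ERY, and 11.62, 11.42, 10.89 and 10.70 in HSPC. The ERY arrays were the tightest of any member and population (SD 0.07, n = 4) and lay above all other arrays. *Ccna2* rose in ERY against HSPC by 1.25 on the log2 scale (SE 0.25, adjusted p = 0.00183) and was lower in MEG than in ERY by a log2 change of -1.76 (SE 0.25, adjusted p = 0.000151). In MEG against HSPC the change was -0.51 (95% interval -1.06 to 0.03, adjusted p = 0.137), and its sign turned under ribosomal centring (0.04) and with array weights (0.07). The rise in ERY was short of 2-fold without HSPC arrays 3 and 4, at 0.89.

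**Figure D2:**
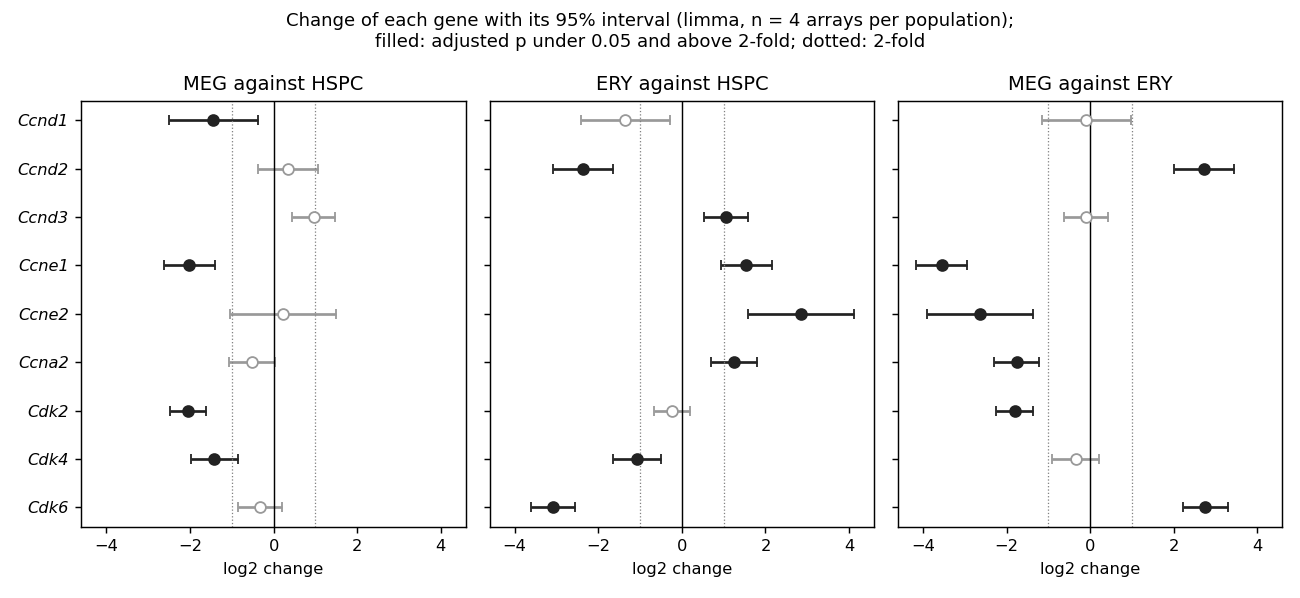
Log2 change of each gene (x axis) in MEG against HSPC, ERY against HSPC and MEG against ERY, with 95% intervals from limma, filled where the gene was called changed; dotted lines mark 2-fold. *Cdk2* and *Ccne1* fell in MEG, *Cdk6* and *Ccnd2* fell in ERY, and all 4 differ between MEG and ERY, the first pair being lower in MEG and the second pair higher.

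In MEG, the genes that passed the test were *Ccne1*, *Cdk2*, *Cdk4* and *Ccnd1*, all lower than in HSPC, and *Ccnd2*, *Ccnd3*, *Cdk6*, *Ccne2* and *Ccna2* did not pass. The call of *Ccnd1* in MEG was lost in 16 of 28 alternatives. In ERY, *Ccne1*, *Ccne2*, *Ccna2* and *Ccnd3* rose while *Ccnd2*, *Cdk6* and *Cdk4* fell, and *Ccnd1* and *Cdk2* did not pass. For *Ccnd1* the change in ERY was -1.35, and it passed in 10 of 28 alternatives. With only the 8 arrays compared, *Ccnd1* passed in ERY (adjusted p = 0.000568) and did not pass in MEG (adjusted p = 0.0933). These calls therefore do not separate MEG from ERY for *Ccnd1*. The direct comparison called *Ccnd2* and *Cdk6* higher, in MEG, and *Ccne1*, *Ccne2*, *Cdk2* and *Ccna2* lower. The arrays of the populations compared did not overlap for 5 of 9 members in MEG against HSPC, 8 of 9 in ERY against HSPC and 6 of 9 between MEG and ERY, against 29.4%, 37.3% and 32.9% of all genes and 40.0%, 51.0% and 47.8% of those reaching the median. The comparisons with HSPC share the HSPC arrays. Over the 28 alternatives, *Ccne1* and *Cdk2* kept their calls in MEG against HSPC, *Ccnd2* and *Cdk6* in ERY against HSPC, and all 4 in MEG against ERY. Of all genes called in MEG against HSPC, 43.5% were higher, or 81.4% under ribosomal centring, and in ERY against HSPC these shares were 40.5% and 66.3%. That centring moved the median change of all genes by 0.55 in MEG against HSPC, 0.40 in ERY against HSPC and 0.15 in MEG against ERY, and centring on the array median moved it by 0.11, 0.12 and -0.01.

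The members also varied among the arrays of 1 population, and some did so together. In MEG, 7 of 9 members were lower on both arrays 1 and 4 than on arrays 2 and 3, with a difference of -0.73 for *Cdk2* to -1.99 for *Ccnd1* on the log2 scale. The exceptions were *Ccnd3* and *Cdk6*, which overlapped. The mean level of 22 S phase genes moved the same way, with 7.30 and 8.19 on MEG arrays 1 and 4 and 8.87 and 8.95 on arrays 2 and 3, and that of 20 mitosis genes was 8.08 and 8.69 against 9.10 and 9.32. So did 11 myeloid genes (6.37 and 6.86 against 7.21 and 8.98) and 12 mast cell and basophil genes (5.12 and 5.41 against 5.75 and 6.42). Endothelial, erythroid and megakaryocyte genes were also lower on MEG arrays 1 and 4, by less. Macrophage, lymphoid, and stem and progenitor genes overlapped, and hepatocyte genes were higher there. Olfactory receptor genes had a median of 5.70 on MEG array 4 and of 4.26 to 4.55 on the other MEG arrays. In HSPC, *Ccnd1*, *Ccnd2*, *Ccne2*, *Ccna2* and *Cdk6* were higher on arrays 1 and 2 than on arrays 3 and 4, by 0.60 to 1.79, and *Ccnd3*, *Ccne1* and *Cdk4* were lower, by -0.80, -0.17 and -0.15. The mitosis genes averaged 10.14 and 9.56 on HSPC arrays 1 and 2 and 8.83 and 8.48 on arrays 3 and 4, and the S phase genes 10.13 and 10.11 against 9.93 and 9.83. The share of all genes that separate these pairs of arrays was not computed, so the counts of members have no background. The MEG pairs were chosen after seeing the data. The part of these shifts in the results was not tested. The median SD of the members was 0.65 over the MEG arrays, 0.20 over the ERY arrays and 0.42 over the HSPC arrays, against 0.32, 0.15 and 0.37 for the genes reaching the median.

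**Figure D3:**
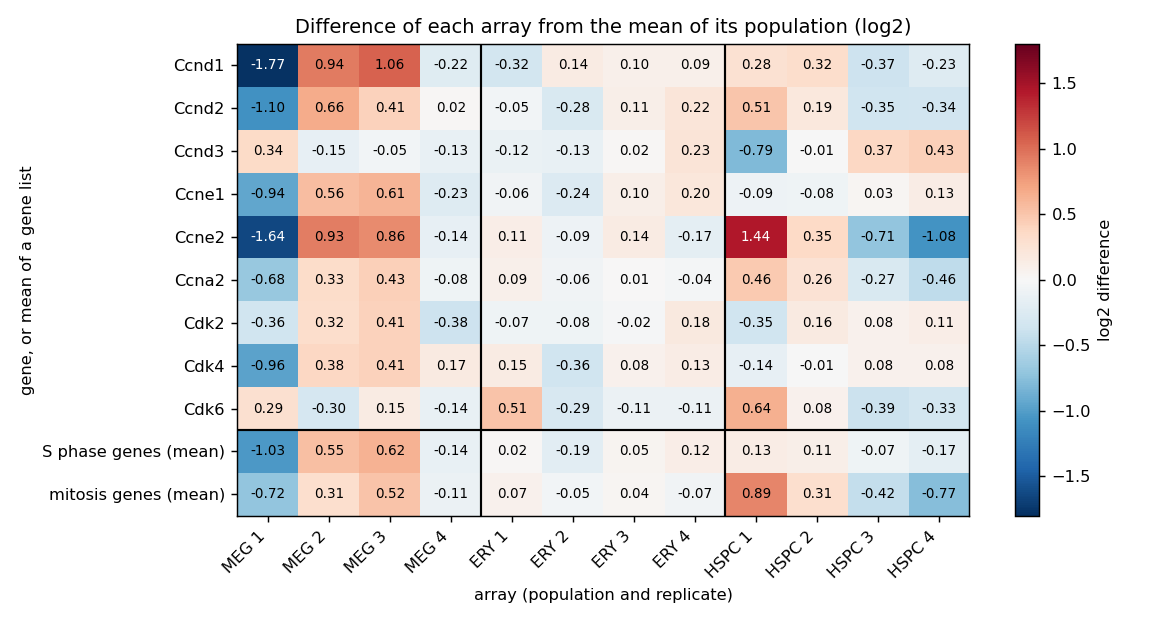
Difference of each array (x axis) from the mean of its own population, in log2 units, for the 9 genes and for the mean of 22 S phase and 20 mitosis genes (y axis); red is above and blue below the mean. MEG array 1 is low for all but *Ccnd3* and *Cdk6*, ERY arrays vary little, and *Ccne2* spans 1.44 to -1.08 over the HSPC arrays together with the mitosis genes (0.89 to -0.77).

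**Figure D4:**
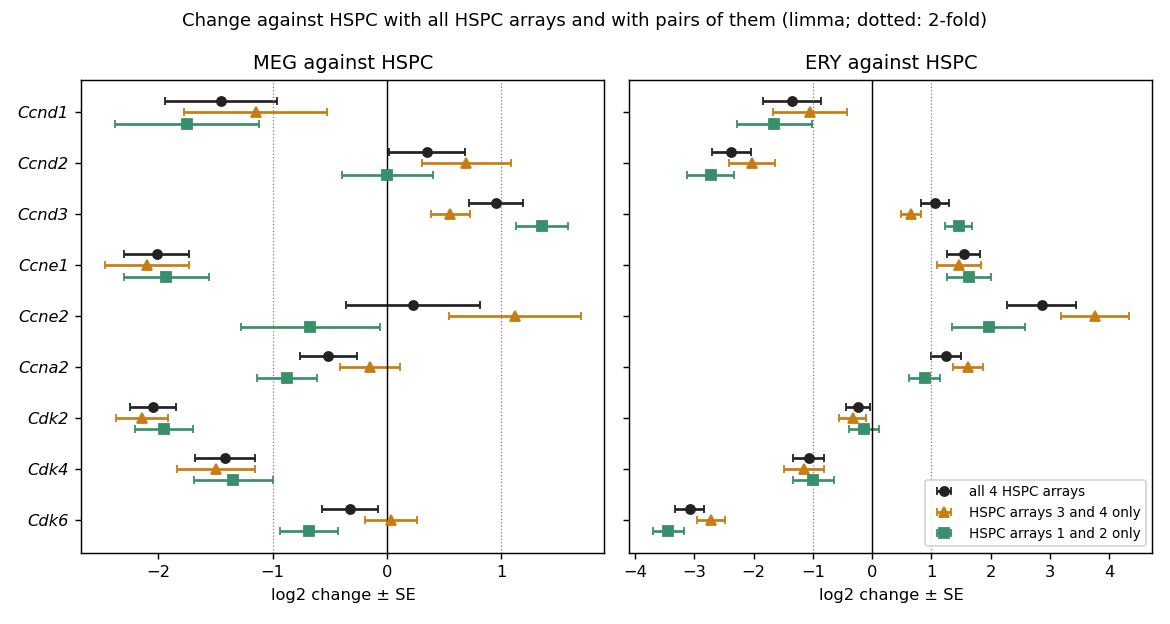
Log2 change ± SE (x axis) of each gene in MEG and in ERY against all 4 HSPC arrays, against HSPC arrays 3 and 4 only, and against HSPC arrays 1 and 2 only. *Ccne1*, *Cdk2* and *Cdk4* move little with the choice of HSPC arrays, and *Ccne2* moves most, with changes of 1.12 in MEG and 3.75 in ERY against HSPC arrays 3 and 4, and of -0.67 in MEG and 1.96 in ERY against HSPC arrays 1 and 2.

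Regulators of these kinases were described from lists chosen for the pathway. The shares of all genes that set the scale for these counts were 8.77% higher and 11.4% lower in MEG against HSPC, 8.35% higher and 12.3% lower in ERY against HSPC, and 8.75% higher and 7.77% lower in MEG against ERY. These shares are from the fit of all 12 arrays and differ in the fits without pairs of arrays. Of 6 CDK inhibitors, 3 rose and none fell in MEG against HSPC, and 3 rose and none fell in ERY against HSPC. *Cdkn2d*, an inhibitor of CDK4 and CDK6, rose by 1.98 in MEG and by 2.18 in ERY on the log2 scale, and *Cdkn1b*, which acts mostly on CDK2, rose by 1.64 and 2.17. *Cdkn2c*, another inhibitor of CDK4 and CDK6, rose in ERY alone by the calls, with levels of 5.59 ± 0.22 in MEG, 10.14 ± 0.07 in ERY and 5.98 ± 0.26 in HSPC (SD, n = 4), and differed between MEG and ERY by -4.55 (SE 0.15). Among the 3 retinoblastoma genes, *Rb1* and *Rbl2* rose in MEG, and *Rb1* and *Rbl1* in ERY. Without HSPC arrays 3 and 4, 2 of them rose and 1 fell in MEG, and only 1 rose in ERY. *Rb1*, which encodes the main substrate of the D-cyclin kinases, had a level of 11.62 ± 0.42 in MEG, 11.78 ± 0.13 in ERY and 7.11 ± 1.51 in HSPC.

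Of 10 E2F and DP genes, 3 fell in MEG against HSPC, 4 rose in ERY against HSPC, and 7 were lower in MEG than in ERY. Without MEG arrays 1 and 4, 2 fell in MEG against HSPC and 5 were lower in MEG than in ERY. Without MEG arrays 2 and 3 these counts were 4 and 8. The median change in MEG against HSPC was -0.36, or 0.08 without MEG arrays 1 and 4 and -0.88 without MEG arrays 2 and 3. Without HSPC arrays 1 and 2, 1 of these genes rose and 2 fell in MEG. *E2f2*, an E2F that maturing erythroblasts express strongly, was at 7.15 ± 0.63 in MEG, 11.52 ± 0.10 in ERY and 7.50 ± 0.13 in HSPC, and *Tfdp2*, a DP partner, differed between MEG and ERY by -2.73. Among 16 genes that activate CDKs or turn cyclins over, 1 rose and 5 fell in MEG against HSPC, 3 rose and 1 fell in ERY against HSPC, and MEG exceeded ERY for 1 and was below it for 7. The phosphatase *Cdc25b*, which activates CDKs, differed most, with 8.16 ± 0.26 in MEG, 12.15 ± 0.09 in ERY and 8.50 ± 0.45 in HSPC. Without HSPC arrays 1 and 2, 4 of these 16 rose and 3 fell in MEG, and without HSPC arrays 3 and 4, 0 rose and 7 fell. Without MEG arrays 1 and 4, 3 were lower in MEG than in ERY.

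Of the 22 S phase genes, 17 fell in MEG against HSPC, where 11.4% of all genes and 18.6% of those reaching the median did, and the median change was -1.81. *Uhrf1*, which couples DNA methylation to replication, and *Cdt1*, which licenses origins, each fell by 2.71 on the log2 scale. Without MEG arrays 1 and 4, 11 of the 22 fell, with a median change of -1.18. In ERY against HSPC 8 rose, where 8.35% of all genes and 13.9% of those reaching the median did, with a median change of 0.47, and without HSPC arrays 3 and 4 the count was 2. Between MEG and ERY 21 were lower in MEG, against backgrounds of 7.77% and 12.6%, with a median of -2.42, or 20 with a median of -1.72 without MEG arrays 1 and 4. *Rrm2*, a subunit of ribonucleotide reductase, and *Orc1*, of the origin recognition complex, had the lowest values of these, with changes of -3.23 and -3.08.

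The mitosis list depended on the HSPC arrays. Of its 20 genes, 8 fell and none rose in MEG against HSPC, with a median change of -0.24. Without HSPC arrays 1 and 2, 8 rose and 6 fell in MEG with a median change of 0.48, and without HSPC arrays 3 and 4, 9 fell and none rose with a median change of -0.94. Of all 19937 genes, 2525 rose and 2770 fell in MEG in the former fit, and 1077 rose and 1931 fell in the latter. The cytokinesis gene *Ect2* fell by 2.72 in MEG. In ERY against HSPC 12 of 20 rose, with a median change of 2.08, which was 2.94 with 13 genes without HSPC arrays 1 and 2 and 1.09 with 9 genes without HSPC arrays 3 and 4. Between MEG and ERY, 19 were lower in MEG with a median change of -2.0, and without MEG arrays 1 and 4, 14 were lower with a median change of -1.44. *Ect2* had the lowest of these changes, at -4.74.

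The genes whose levels followed each member most closely over the 12 arrays, among those that reached the median, form a description with no test, since the arrays share populations and processing. The closest 3 are given for each. *Ccne1* was closest to *Aurka* (Pearson r = 0.990) and *Birc5* (0.989), which act in mitosis, and *Ogdh* (0.988), an enzyme of the citric acid cycle. *Ccne2* was closest to *Gen1* (0.996), a nuclease of recombination, *Tpx2* (0.989), a spindle factor, and *Nuf2* (0.988), of the kinetochore. For *Ccna2* they were *Oip5* (0.994), a factor of centromere assembly, *Fignl1* (0.994) and *Pitrm1* (0.993), a mitochondrial peptidase. For *Cdk2* they were *Rpa2* (0.993), of the single-strand DNA binding complex, the carbonyl reductase gene *Cbr1* (0.993) and *Gins2* (0.992), of the replicative helicase. *Cdk4* was nearest to *Fbl* (0.994), which encodes the nucleolar protein fibrillarin, *Mmachc* (0.990), of cobalamin metabolism, and *Cnot9* (0.988), of the CCR4-NOT complex. For the members that are low in ERY, the closest genes were *Lrmp* (0.991), *Stap1* (0.987) and *Ctbp2* (0.9752) for *Ccnd2*, and *Susd1* (0.988), *Cyfip2* (0.980) and *Serpinb1a* (0.976) for *Cdk6*. *Ccnd3* had *Acss2* (0.955), the erythro-megakaryocytic transcription factor gene *Gata1* (0.951) and *Gse1* (0.950), and *Ccnd1* had *Cct3* (0.965), a subunit of a cytoplasmic chaperonin, *Jpt2* (0.963) and *Rpl7l1* (0.962). Between members, *Ccnd2* and *Cdk6* correlated at 0.898 over the 12 arrays, *Ccne2* and *Ccna2* at 0.937, *Ccne1* and *Ccna2* at 0.904, and *Ccnd1* and *Cdk4* at 0.874, whereas *Ccnd3* correlated at no more than 0.194 with any other member and at -0.752 with *Ccnd1*.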

How the data were processed

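Gene expression was measured in 3 populations, with 4 replicates each, on Affymetrix mouse gene arrays of the 1.0 ST design. The authors deposited log2 values made by RMA, a method that removes background, brings probe intensities to a common distribution and combines the probes of a set. A change in total RNA per cell is therefore not measured. The deposited arrays still differed in spread, with an interquartile range over all probe sets from 2.75 on MEG array 4 to 3.49 on MEG array 3. The version of RMA is not given in the sources used here. No raw intensities were used, and the number of arrays limits the precision. The table holds 34760 probe sets, of which 21640 carry 1 gene symbol in the platform annotation, 1321 carry several and 11799 are not listed there. Per gene the probe set with the highest mean over 12 arrays was taken, which gave 19937 genes. Listed genes without such a probe set were not analysed here.

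Populations were compared by limma 3.58.1 (R 4.3.3) in a single model of all 12 arrays, with no filter on low values, and Benjamini-Hochberg adjustment over all genes. The 2-fold limit and the FDR of 5% come from the study's methods. All adjusted p values in the text are limma's. The fit was tested on simulated data. All 9 members are named, and so are the 3 genes most correlated with each. Of the other lists, only members among the 2 largest called increases or decreases in a comparison are named. Members and lists were chosen with earlier results of these data known.

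The alternatives tried were a replicate block, a fit restricted to the 8 arrays compared, leaving out each array or a pair of arrays, a filter at the median of all values, quantile normalization, centring on the array median or on 60 ribosomal protein genes, a trended and robust variance, averaging the probe sets of a gene, array weights (whose iteration stopped short of its tolerance), a test against 2-fold (treat) and no minimum change. The fits without MEG arrays 1 and 4 and without MEG arrays 2 and 3 were chosen after seeing the data, as were all fits of the lists without pairs of arrays. Of 12 pairs of arrays with the same replicate number, 5 correlated above 0.1 in their deviations from the population means. Pairs with different numbers were not compared with them, so whether the numbers pair the arrays is not known. Gene positions and promoters are from RefSeq, GRCm38.p6. Figures were made with Python 3.11.15 and matplotlib 3.10.9.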

Additional observations from a re-analysis of the deposited data

Results flagged for a closer look

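Of 27 sets of 4 arrays, 1 per member and population, 3 had an array far from the other 3, by Dixon's ratio of the gap to the range, where chance gives about 5% of such sets. *Ccnd1* was at 8.37 on ERY array 1, *Cdk4* at 11.49 on ERY array 2 and *Cdk2* at 10.08 on HSPC array 1, each the lowest of its population. Without ERY replicate 2, the change of *Cdk4* in ERY against HSPC was -0.95, short of 2-fold.

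The change against HSPC differed between MEG and ERY for 6 members, by the limma test of MEG against ERY. The change in MEG minus that in ERY was 2.73 for *Ccnd2*, 2.76 for *Cdk6*, -3.56 for *Ccne1*, -2.63 for *Ccne2*, -1.76 for *Ccna2* and -1.81 for *Cdk2*, on the log2 scale.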

How the results depend on the processing

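The number of members changed was 4 in MEG against HSPC (3 to 5 when 1 array was left out), 7 in ERY against HSPC (6 to 8) and 6 between MEG and ERY (6 in each such fit). Against a change of 2-fold (treat), it was 2 in MEG against HSPC, 2 in ERY against HSPC and 4 between MEG and ERY, and fewer calls follow from that stricter rule. With the replicate block it was 4, 8 and 6; the block added the call of *Ccnd1* in ERY against HSPC (adjusted p = 0.0470), and changed no other call. Of 27 changes, 8 kept their direction and call in all 28 alternatives. Of 756 values under alternatives, 680 kept both, 34 lost a call, 22 gained one and 20 turned in sign, none of the last for a change that had been called.

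In MEG against HSPC, *Ccne2* (0.23) lay between -0.13 and 0.77 when 1 array was left out, and was -0.67 without HSPC arrays 3 and 4 and -0.66 without MEG arrays 2 and 3. *Ccnd2* was -0.19 without MEG arrays 2 and 3. *Cdk6* was 0.23 under ribosomal centring and 0.0365 without HSPC arrays 1 and 2, and *Ccna2* was 0.0418 under that centring and 0.0701 with array weights. In ERY against HSPC, *Cdk2* was 0.17 with that centring. Between MEG and ERY, *Ccnd1* lay between -0.45 and 0.50 when 1 array was left out, and was 0.26 without MEG arrays 1 and 3, 0.90 without MEG arrays 1 and 4, 0.0554 under ribosomal centring and 0.75 with array weights. *Ccnd3* was 0.0495 under that centring and 0.0012 without MEG arrays 2 and 3, and *Cdk4* was 0.0462 without MEG arrays 1 and 4. The cause was not tested.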
